A study of Mus musculus with 18 samples.

Results

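At 48 hr after induction (hpi), C/EBPα and PU.1 chromatin immunoprecipitation followed by sequencing (ChIP-seq) reads were compared across the genome of C10 cells. Every 200-bp bin of mouse chromosomes 1 to 19 (build mm9) that held 8 or more reads in either library was taken, bins bound by PU.1 alone included, which gave 70439 of 12361722 bins. C10 is a derivative of the HAFTL pre-B cell line that carries C/EBPα fused to the hormone-binding part of the estrogen receptor together with GFP, so β-estradiol moves the fusion protein into the nucleus and the cells become macrophage-like. Both libraries came from cells induced with β-estradiol for 48 hr and grown with IL-3 and CSF-1. The labels give the dose as 100 nM and the study's methods give another unit. The antibodies were sc-61 for C/EBPα and sc-352 for PU.1. There was 1 library per factor, all from 1 cell line, and neither an input library nor expression data were analysed here, so the cell identity could not be set against marker genes.

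C/EBPα is a basic leucine zipper factor that drives granulocyte and macrophage development, and its close relative C/EBPβ binds the same DNA sequence. PU.1 is an ETS-family factor, encoded by *Sfpi1*, that is needed for both macrophages and early B cells and is already present in pre-B cells. Pairs of the 2 factors at enhancers are a known feature of macrophage genes.

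After removal of reads that repeated a position and strand, 7760300 C/EBPα and 10204581 PU.1 reads were left on these chromosomes, and the PU.1 reads were drawn at random down to 7760300. Of the reads, 4.67% of the C/EBPα and 16.8% of the PU.1 library lay in the 70439 bins, so the PU.1 library was the more concentrated and the numbers of bins of both factors cannot be read as numbers of molecules. No test was possible between single libraries. The 95% intervals are exact (Poisson for reads, Clopper-Pearson for shares) and cover counting error only, and bins that touch each other are not independent. In what follows, a C/EBPα-biased bin had at least 4 times more C/EBPα than PU.1 reads (1 read added to each), a PU.1-biased bin at least 4 times more PU.1 reads, and a co-bound bin 8 or more reads of each factor.

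The sequences below show what the classes look like at the level of DNA. They are the plus strand of mm9 (NCBIM37), and capitals mark each match on either strand to the consensus letters of C/EBP (TTGCNNAA), PU.1 (GAGGAAGT), AP-1 (TGACTCA) or RUNX (TGTGGTT). First come 2 of the strongest bins of the C/EBPα-biased class and the 2 strongest of the PU.1-biased and of the co-bound class, in this order. The last 5 are bins near *Lyz1*, *Runx1* and *Ctsd*, chosen after their values were seen, because they put both kinds of site beside 1 gene. Those of *Runx1* lie 158600 bp apart.
Nt5e, chr9:88168201-88168400: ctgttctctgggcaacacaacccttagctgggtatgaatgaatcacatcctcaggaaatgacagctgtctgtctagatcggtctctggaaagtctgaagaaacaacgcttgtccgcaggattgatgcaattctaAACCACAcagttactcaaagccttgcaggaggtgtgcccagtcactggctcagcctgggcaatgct
Psap, chr10:59715401-59715600: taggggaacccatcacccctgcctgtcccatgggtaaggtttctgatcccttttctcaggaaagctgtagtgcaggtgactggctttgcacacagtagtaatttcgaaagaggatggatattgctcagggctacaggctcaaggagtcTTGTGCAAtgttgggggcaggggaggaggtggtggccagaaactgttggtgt
9830001H06Rik, chr2:156889201-156889400: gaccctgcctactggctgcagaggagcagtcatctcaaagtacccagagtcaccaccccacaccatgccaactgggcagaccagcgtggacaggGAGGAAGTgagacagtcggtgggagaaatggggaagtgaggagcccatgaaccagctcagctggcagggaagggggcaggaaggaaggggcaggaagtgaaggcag
Prg2, chr2:84807601-84807800: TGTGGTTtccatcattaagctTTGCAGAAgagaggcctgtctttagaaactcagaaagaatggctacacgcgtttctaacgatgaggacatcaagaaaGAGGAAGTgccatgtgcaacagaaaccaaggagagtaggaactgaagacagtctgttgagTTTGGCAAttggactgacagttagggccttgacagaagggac
Klk12, chr7:51003201-51003400: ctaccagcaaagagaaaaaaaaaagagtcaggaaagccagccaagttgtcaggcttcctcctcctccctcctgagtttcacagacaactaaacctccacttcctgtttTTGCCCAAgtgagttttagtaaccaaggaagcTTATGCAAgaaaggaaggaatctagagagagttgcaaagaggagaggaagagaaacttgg
Gm885, chr11:106620401-106620600: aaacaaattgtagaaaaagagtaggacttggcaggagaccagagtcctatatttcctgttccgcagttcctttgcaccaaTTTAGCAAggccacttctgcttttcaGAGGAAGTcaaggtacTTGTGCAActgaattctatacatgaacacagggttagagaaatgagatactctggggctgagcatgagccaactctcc
Lyz1, chr10:116738801-116739000: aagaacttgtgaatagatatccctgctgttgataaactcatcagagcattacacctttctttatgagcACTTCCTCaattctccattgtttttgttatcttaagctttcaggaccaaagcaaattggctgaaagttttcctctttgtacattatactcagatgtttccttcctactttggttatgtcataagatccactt
Lyz1, chr10:116739001-116739200: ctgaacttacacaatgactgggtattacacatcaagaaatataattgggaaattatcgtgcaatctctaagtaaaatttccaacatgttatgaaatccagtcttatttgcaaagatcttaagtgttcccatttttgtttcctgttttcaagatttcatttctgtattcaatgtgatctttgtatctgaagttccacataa
Runx1, chr16:92874401-92874600: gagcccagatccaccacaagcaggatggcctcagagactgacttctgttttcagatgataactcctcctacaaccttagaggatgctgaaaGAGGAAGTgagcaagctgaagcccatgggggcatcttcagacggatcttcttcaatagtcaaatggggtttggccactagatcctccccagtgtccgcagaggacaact
Runx1, chr16:92715801-92716000: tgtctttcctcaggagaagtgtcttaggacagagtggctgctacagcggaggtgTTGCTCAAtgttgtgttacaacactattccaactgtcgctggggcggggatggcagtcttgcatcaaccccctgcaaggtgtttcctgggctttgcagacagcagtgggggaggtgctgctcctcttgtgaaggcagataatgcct
Ctsd, chr7:149585201-149585400: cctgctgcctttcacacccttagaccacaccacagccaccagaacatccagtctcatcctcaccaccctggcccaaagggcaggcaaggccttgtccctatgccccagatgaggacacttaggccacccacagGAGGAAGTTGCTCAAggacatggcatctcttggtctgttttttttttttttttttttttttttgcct

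The bin near *Nt5e* (the cell-surface nucleotidase CD73), 54146 bp upstream of its TSS in intergenic DNA, had 158 C/EBPα reads (134 to 185) and 7 PU.1 reads (2.81 to 14.4), and held a RUNX match and no match to the C/EBP consensus. It held the joined C/EBP-ATF letters (TTGCATCA, on the minus strand) from base 122, which are not in capitals. The bin near *Psap* (the lysosomal protein prosaposin), 24874 bp upstream, had 146 and 10 reads and held a C/EBP match at base 149. The intronic bin of *9830001H06Rik* had 16 C/EBPα and 225 PU.1 reads with a PU.1 match at base 95. The intergenic bin 12917 bp upstream of *Prg2* (eosinophil major basic protein) had 40 and 208 reads, with a PU.1 match at base 99 between C/EBP matches at bases 22 and 159. In the co-bound class the intergenic bin 20966 bp upstream of *Klk12* (a kallikrein protease) had 119 and 144 reads with C/EBP matches at bases 109 and 141 and no PU.1 match. The intronic bin of *Gm885* had 110 and 158 reads, with a PU.1 match at base 107 between C/EBP matches at bases 81 and 123. By their counts the bins of *Psap*, *9830001H06Rik* and *Prg2* were co-bound as well as biased. These bins thus ranged from that of *Nt5e*, with neither a C/EBP nor a PU.1 consensus match, to those of *Prg2* and *Gm885* with both.

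PU.1 passed the read minimum in far more bins than C/EBPα at 48 hpi. Binding and antibody yield cannot be told apart in these counts. Of the 70439 bins, 63021 had 8 or more PU.1 reads (PU.1 bins) and 14387 had 8 or more C/EBPα reads (C/EBPα bins). C/EBPα-biased bins numbered 3381 (4.8% of the 70439), PU.1-biased bins 40274 (57.2%) and co-bound bins 6969 (9.89%). The co-bound class overlapped both others, since 164 of its bins were C/EBPα-biased and 830 PU.1-biased, and 20809 bins (29.5%) were in no class. The median log2 ratio of C/EBPα to PU.1 reads (1 added) was -2.17 over the 70439 bins, 2.62 in the C/EBPα-biased, -0.37 in the co-bound and -3.09 in the PU.1-biased class. In total, 62% of the bins were past the 4-fold limit in either direction. The same rule applied to 24 and 48 hpi of the same factor, at the depth of the smaller library, put 8.13% of bins past it for C/EBPα and 5.87% for PU.1. Those libraries differ in time and are not replicates, and the PU.1 pair was compared at 10204581 reads each. The 62% also includes the general shift towards PU.1 (median -2.17), with 16.8% of PU.1 and 4.67% of C/EBPα reads in the bins. It is therefore not a share of factor-specific sites, and the percentages are not like for like. At the read limit itself, 10702 bins had exactly 8 reads in the stronger library, with a median log2 ratio of -1.58, and the 16452 bins just outside, with 7 reads, had a median of -1.42.

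**Figure D1:**
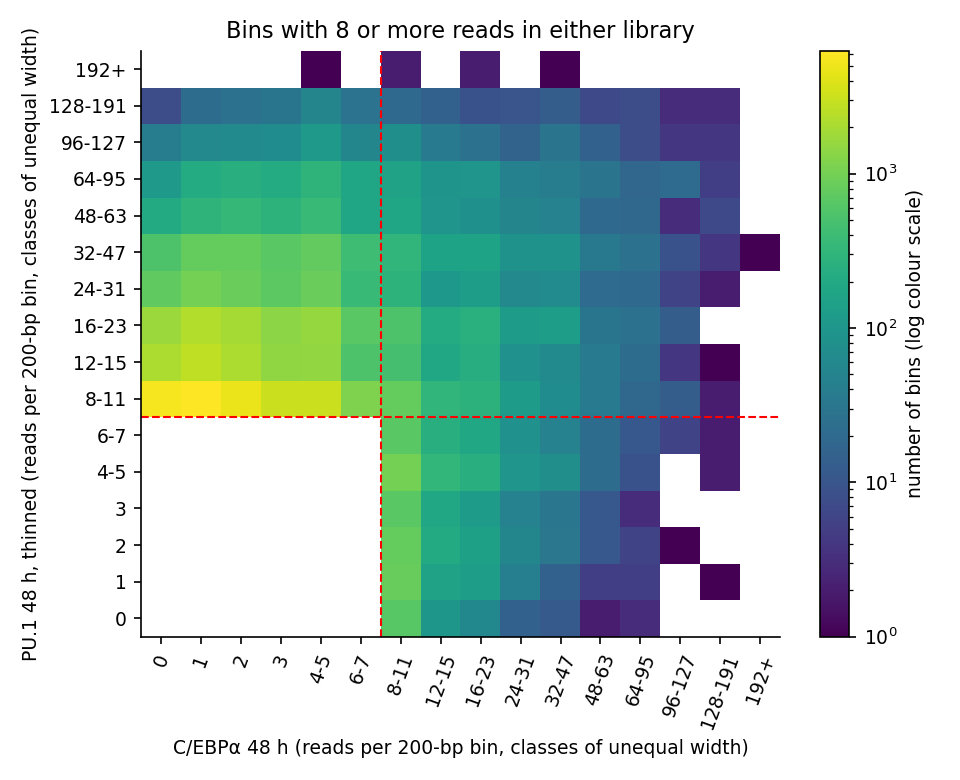
Number of 200-bp bins (colour, log scale) by C/EBPα reads (horizontal) and thinned PU.1 reads (vertical) at 48 hpi, in read classes of unequal width; the red dashed lines stand at 8 reads. Most of the 70439 bins lie at the upper left, with 8 or more PU.1 and few C/EBPα reads, and the 6969 co-bound bins fill the upper right.

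The bins shared by both factors made up different parts of lists of unequal length. Of the C/EBPα bins, 48.4% (47.6 to 49.3) were co-bound, against 11.1% (10.8 to 11.3) of the PU.1 bins. The first share was between 43.0% and 53.1% on every one of the 19 chromosomes. Both shares rest on the same 6969 bins, so their difference is that of the list lengths. When the PU.1 bins were cut to the 14917 with 24 or more reads, a list about as long as that of C/EBPα, 20.1% of the C/EBPα bins and 19.4% of these PU.1 bins were shared. When a PU.1 bin next to the C/EBPα bin was counted as well, the share of C/EBPα bins was 59.7%. Member bins that touched formed 45074 runs, of which 5792 held both factors, 4752 C/EBPα alone and 34530 PU.1 alone. The longest run, 43 bins on chromosome 11 with a median of 20 C/EBPα and 13 PU.1 reads, already had a median of 19 C/EBPα reads at 0 hpi. Its median of C/EBPβ reads at 0 hpi was 7. Of the 70439 bins, 695 had 8 or more reads in both the C/EBPα and the C/EBPβ library before induction, and 427 of them were co-bound, 189 C/EBPα-biased and 8 PU.1-biased. These 695 are left out of the 8 strongest bins of each class but not of the bins given for the gene lists, where their reads before induction are stated.

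Stronger bins were more often co-bound. Among C/EBPα bins with 8 to 11 C/EBPα reads, 38.0% (36.8 to 39.1) were co-bound, and the share was 60.4% at 16 to 31 reads and 84.8% (80.4 to 88.5) at 64 or more. Among PU.1 bins it went from 6.42% (6.13 to 6.73) at 8 to 11 PU.1 reads to 30.5% (28.8 to 32.3) at 64 or more. In the 14387 C/EBPα bins the Spearman correlation of C/EBPα reads at 48 hpi was 0.308 with PU.1 and 0.645 with C/EBPβ. Within the 6969 co-bound bins, where the rule asked for 8 or more reads of each factor, that of C/EBPα with PU.1 was 0.147. The bins share the libraries and differ in base composition. The strata and correlations also kept the 695 bins high before induction, which had medians of 24 C/EBPα and 12 PU.1 reads. A run of 30 bins on chromosome 17 had medians of 104.5 and 68 reads, and of 80.5 C/EBPα reads already at 0 hpi. No p is given for these, as bins are not replicates.

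Bins of one class lay close to the other factor more often than bins at large, though most did not. A PU.1 bin was found at the same place or within 1000 bp for 34.7% of the C/EBPα-biased bins, against 3.47% of all 12361722 bins. A C/EBPα bin was found at the same place or within 1000 bp for 11.8% of the PU.1-biased bins, against 0.923% of all bins. The bins at large were not matched to the classes in GC content or in distance to a TSS, both of which differed. Still, 848 C/EBPα bins had 0 PU.1 reads and 10991 PU.1 bins had 0 C/EBPα reads, and the exact interval of a count of 0 goes up to 3.69 reads. Around the C/EBPα-biased bins the mean level of the thinned PU.1 reads at 48 hpi was 2.65 per 10000000 in the bin itself and 3.96 and 3.89 in the bins on either side. The rule had set the first of these values. The PU.1 library at 0 hpi, which the rule did not use, gave 2.41 in the bin and 2.78 and 2.69 beside it. Around the PU.1-biased bins C/EBPβ at 48 hpi was 4.0 in the bin and 3.61 and 3.53 beside it.

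**Figure D2:**
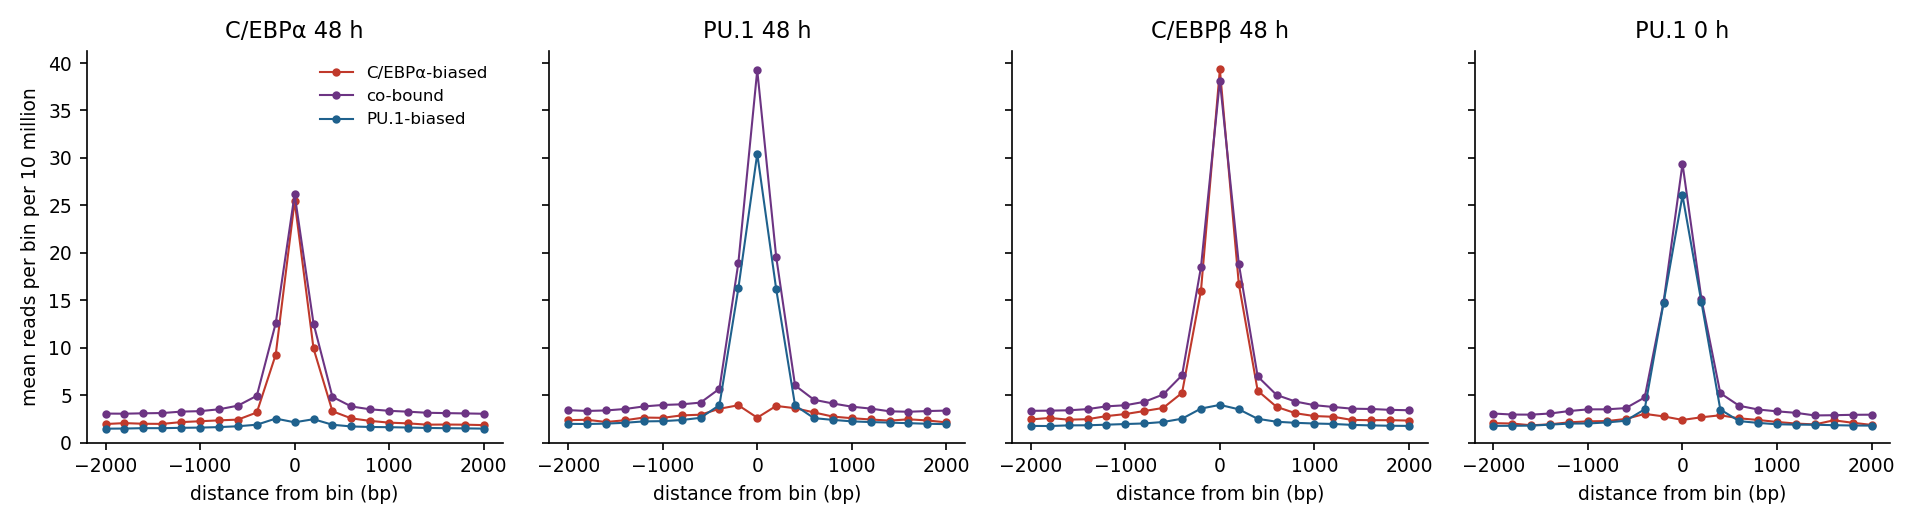
Mean reads per 200-bp bin per 10000000 reads (vertical) by distance from the bin in bp (horizontal) for C/EBPα-biased, co-bound and PU.1-biased bins, in the libraries of C/EBPα, PU.1 (thinned) and C/EBPβ at 48 hpi and PU.1 at 0 hpi. The first pair of panels shows what the rule chose, C/EBPβ is high in the C/EBPα-biased (39.3) and co-bound (38.1) bins, and PU.1 at 0 hpi is high in the co-bound (29.4) and PU.1-biased (26.05) bins.

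The DNA sequence, which the rule did not use, separated the classes. The C/EBP consensus was present in 34.3% (32.7 to 36.0) of C/EBPα-biased, 23.5% (22.5 to 24.6) of co-bound and 7.94% (7.68 to 8.21) of PU.1-biased bins, and in 9.28% of all bins without unknown bases. The PU.1 consensus was present in 1.06%, 12.7% and 20.2% of the same classes and in 1.20% of all bins. Because GC content differed (medians of 50%, 48.5% and 46%, and 42% over all bins), each share was also set against all bins weighted to the same GC content. By this measure the C/EBP consensus was 4.99 times as frequent in C/EBPα-biased bins, 3.21 times in co-bound bins and 0.978 times in PU.1-biased bins. The PU.1 consensus was 0.759, 8.76 and 14.5 times as frequent. PU.1-biased bins thus held the C/EBP letters about as often as other DNA of the same GC content.

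Among the other consensus sequences, that of C/EBP and ATF differed most between the classes when set against the GC-weighted share, though not in plain percentages. The AP-1 consensus, bound by Fos and Jun proteins, was in 7.69% of C/EBPα-biased, 11.4% of co-bound and 8.14% of PU.1-biased bins (2.48, 3.45 and 2.43 times the GC-weighted share). The RUNX consensus was in 7.66%, 8.70% and 5.46% (1.96, 2.05 and 1.19 times). The C/EBP-ATF letters, in which a C/EBP and an ATF site are joined, were in 2.93%, 2.78% and 0.653% (6.58, 5.69 and 1.19 times). The EBF letters (TCCCNNGGG), for the B-lineage factor Ebf1, and the E-box CAGCTG were within 1.26 times of the GC-weighted share in all 3 classes. All letters were searched on both strands, and the C/EBP and C/EBP-ATF letters both begin with TTGC.

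Along the ratio the plain shares of the consensus letters crossed over. In 9 strata of the log2 ratio, the C/EBP consensus was in 6.87% of the 5996 bins below -4 and in 34.7% (32.1 to 37.3) of the 1332 bins at 3 or more. The PU.1 consensus went from 29.8% (28.6 to 30.98) to 0.901% (0.466 to 1.57) across the same strata. The shares lay closest between -2 and -1, at 9.78% and 13.0%. Between -1 and 0 the order was turned, at 14.2% and 8.23%, and from 0 to 1 the C/EBP consensus was at 23.2% and the PU.1 consensus at 4.30%. Over all bins the shares were 9.28% for the C/EBP and 1.20% for the PU.1 consensus. The place of the crossing therefore depends on the letters searched, and no switch of preference is read from it. Strength mattered as well. The C/EBP consensus was in 17.8% of C/EBPα bins with 8 to 11 reads and in 55.9% of those with 64 or more, and the PU.1 consensus in 12.1% and 39.6% of PU.1 bins at the same read counts.

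**Figure D3:**
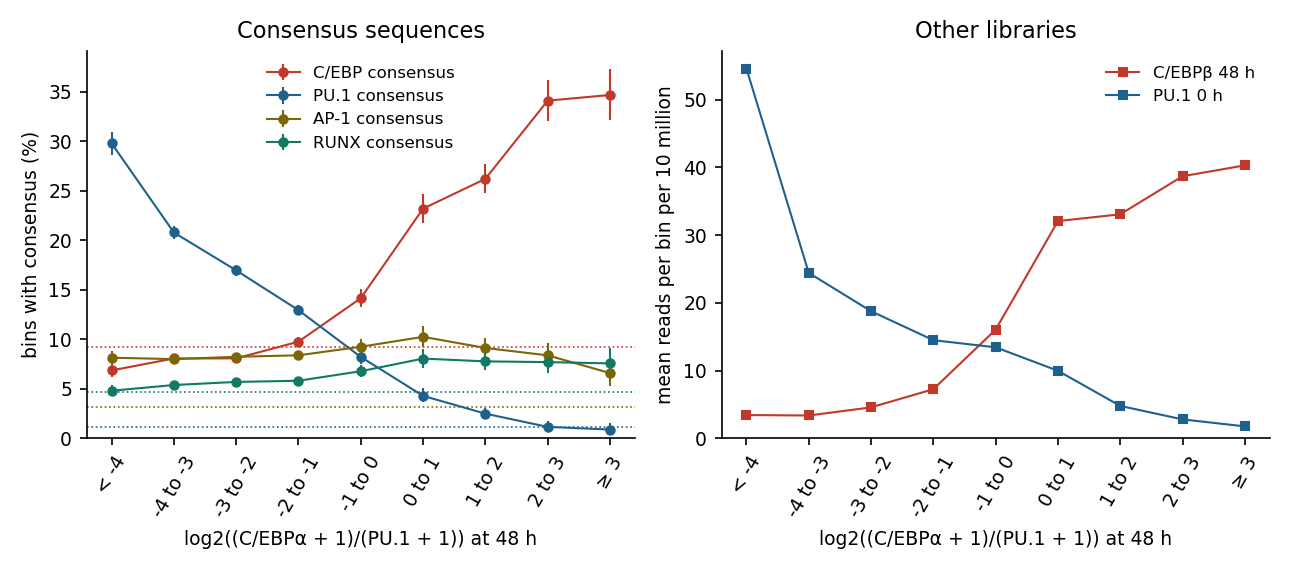
Left, percentage of bins with each consensus (points, bars are 95% exact intervals; dotted lines are the share over all bins without unknown bases) by the log2 ratio of C/EBPα to PU.1 reads at 48 hpi. Right, mean reads per bin per 10000000 of C/EBPβ at 48 hpi, which goes from 3.45 to 40.3 across the strata, and of PU.1 at 0 hpi, which goes from 54.6 to 1.79.

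Most co-bound bins did not hold exact matches to both consensus sequences. Other forms of the sites were not searched, so a bin without a match may still hold a site. Of the PU.1 bins with 64 or more PU.1 reads, 39.6% held the PU.1 letters. Both consensus sequences were found in 197 co-bound bins (2.83%, 2.45 to 3.24), against 0.503% of C/EBPα-biased, 1.37% of PU.1-biased and 0.0862% of all bins. Only the C/EBP consensus was found in 20.7% of the co-bound bins, only that of PU.1 in 9.89%, and neither in 66.6%. Neither was found in 65.1% of C/EBPα-biased, 73.3% of PU.1-biased and 89.6% of all bins. In the 197 bins the nearest pair lay a median of 43 bp apart (quartiles 21 and 70 bp), with 48 pairs within 20 bp. No single distance stood out, the commonest being 13 bp in 7 bins. In the 1943 co-bound bins with 16 or more reads of each factor, the centres of the C/EBPα and PU.1 reads differed by a median of 25.8 bp (quartiles 12.5 and 44.6). As both centres are means of the reads within 200 bp of the middle of the same bin, the rule largely set this closeness, and nothing is read from it.

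C/EBPα-biased bins lay nearer to promoters than PU.1-biased bins. A TSS of a protein-coding gene was within 1000 bp of 21.3% (19.95 to 22.7) of C/EBPα-biased, 15.3% (14.5 to 16.2) of co-bound and 10.6% (10.3 to 10.9) of PU.1-biased bins, and of 2.28% of all bins. It was also within 1000 bp of 20.3% of all 14387 C/EBPα bins, so this was not particular to the C/EBPα-biased class. Over all 63021 PU.1 bins the share was 13.3%. The median distance to the nearest TSS was 11679, 15165 and 17010.5 bp, and 58339 bp over all bins. Introns farther than that from a TSS held 34.1% of all C/EBPα-biased and 44.9% of all PU.1-biased bins, and intergenic DNA 40.5% and 41.1%. Near a TSS the C/EBP consensus was in 18.7% of C/EBPα-biased bins and elsewhere in 38.6%, with median GC contents of 62.5% and 48.5%. The PU.1 consensus was in 15.2% and 20.8% of PU.1-biased bins at the same places.

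The other libraries of the time course, none of which entered the rule, were then counted in the classes. C/EBPβ at 48 hpi had on average 39.3 reads per 10000000 in C/EBPα-biased, 38.1 in co-bound and 4.0 in PU.1-biased bins, 52.1, 50.5 and 5.29 times its level outside the 70439 bins. At a scaled count of 8 or more, 67.7%, 78.5% and 7.0% of the bins had C/EBPβ. PU.1 at 0 hpi was at 2.41, 29.4 and 26.05, and 2.48%, 53.6% and 56.6% of the bins had PU.1 before induction. The share that already had PU.1 in pre-B cells was thus slightly lower for co-bound than for PU.1-biased bins. The mean PU.1 level in C/EBPα-biased bins was 2.41 at 0 hpi, 4.13 at 3 hpi, 5.56 at 12 hpi, 4.23 at 24 hpi and, in the whole library before thinning, 2.95 at 48 hpi, and 14.5% of these bins had PU.1 at 12 hpi. As the rule asked for few PU.1 reads at 48 hpi, the low value at that time was set by the rule.

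C/EBPα itself was lower in C/EBPα-biased and co-bound bins before induction than later, at 6.31 and 6.37 reads per 10000000. These means were already 7.91 and 7.99 times the level outside the bins compared. At the scaled count used above for C/EBPβ, 16.9% and 15.2% of the bins had C/EBPα at 0 hpi. The means were 21.3 and 23.5 at 30 min and 30.9 and 28.2 at 3 hpi. They were 31.4 and 33.2 at 12 hpi and 24.4 and 26.3 at 24 hpi. Without the bins high before induction the values at 0 hpi were 4.75 and 4.48. The libraries of 10, 30 and 60 min were read on another sequencer, so time and sequencer cannot be told apart there. PU.1-biased bins stayed between 1.78 and 3.64 in the C/EBPα libraries from 0 to 24 hpi, and 5.72% of them were C/EBPα bins at 12 hpi. C/EBPβ was at 5.32 and 6.63 at 0 hpi and at 39.3 and 38.1 at 48 hpi in the C/EBPα-biased and co-bound bins. The means of the C/EBPα-biased and co-bound bins lay close together for both C/EBP proteins and apart for PU.1, at 2.41 and 29.4 at 0 hpi. The rule set this contrast in part. At 48 hpi it asked for C/EBPα reads in both classes, and for PU.1 reads in the co-bound bins only. Libraries of the same factor are correlated. In PU.1 bins the Spearman correlation of PU.1 at 48 hpi was 0.731 with 24 hpi and 0.529 with 0 hpi. The contrast is therefore not a result separate from the rule.

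**Figure D4:**
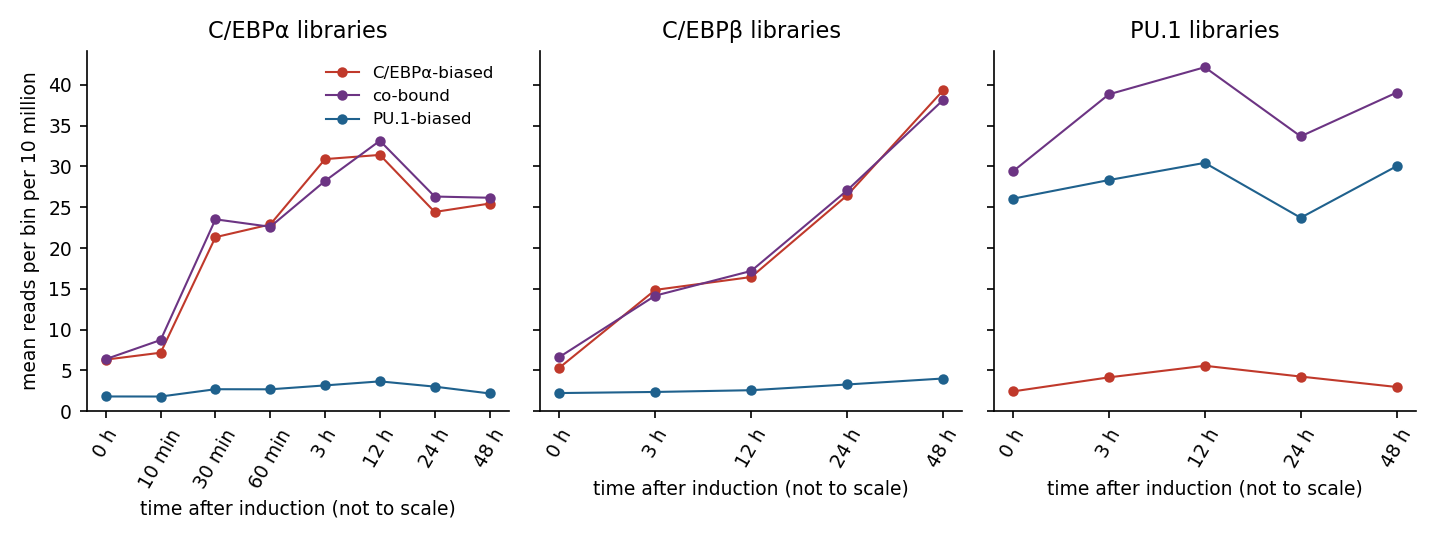
Mean reads per bin per 10000000 (vertical) in every C/EBPα, C/EBPβ and PU.1 library by time after induction (not to scale) for the 3 classes; 1 library per point, without error bars. C/EBPα-biased and co-bound bins run close together for C/EBPα and C/EBPβ, whereas PU.1 is high in co-bound and PU.1-biased bins at every time; the 48 h points of C/EBPα and PU.1 were used by the rule.

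The 8 strongest bins of each class, 1 per nearest gene, were picked by the reads that define the classes. Their contrast in C/EBPα and PU.1 reads at 48 hpi was therefore set by the rule. In the C/EBPα-biased class the 8 bins had 135 to 162 C/EBPα reads and 1 to 29 PU.1 reads, and 6 of the 8 held a C/EBP and none a PU.1 consensus. Beside *Nt5e* and *Psap* (above), they included bins near *6430548M08Rik* (145 and 29 reads), *Orm1* (an acute-phase protein, 138 and 1) and *Plin2* (a lipid droplet coat protein, 135 and 8). All 8 had 111 to 226 C/EBPβ reads per 10000000 at 48 hpi and at most 7.26 PU.1 reads at 0 hpi. PU.1 was higher later at some of them, with 57.7, 47.8 and 42.4 reads per 10000000 at 3, 12 and 24 hpi near *Psap* and 31.5 at 24 hpi near *6430548M08Rik*.

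In the PU.1-biased class the 8 strongest bins had 189 to 225 PU.1 and 3 to 40 C/EBPα reads, and 6 of the 8 held a PU.1 consensus. Beside *9830001H06Rik* and *Prg2* they were near *Gm11084* (17 C/EBPα and 204 PU.1 reads), *Gm8420* (5 and 203), *Ube2e3* (a ubiquitin-conjugating enzyme, 8 and 201, at 166866 bp), *Ryk* (a Wnt receptor, 9 and 195), *Slc39a10* (a zinc transporter, 3 and 191) and *Siglecg* (an inhibitory B cell receptor for sialic acid, 5 and 189). All were PU.1 bins before induction, with 209 to 402 reads per 10000000 at 0 hpi. Their C/EBPβ level at 48 hpi was between 0 and 50.6, the highest being that of the bin near *Prg2*, which also had the most C/EBPα reads.

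The 8 strongest co-bound bins, ranked by the lower of the counts, had 87 to 144 C/EBPα and 94 to 162 PU.1 reads. Beside *Klk12* and *Gm885* they were near *Arhgef10l* (a guanine nucleotide exchange factor, 143 and 104 reads), *Idh2* (mitochondrial isocitrate dehydrogenase, 103 and 124), *Smap2* (an Arf GTPase-activating protein, 144 and 98), *Alpk1* (a kinase that senses bacterial sugars, 131 and 94), *Vrk1* (a nuclear kinase, 94 and 145) and *Tmem48* (a nuclear pore protein, 87 and 162). A C/EBP consensus was found in 5, a PU.1 consensus in 3 and both in 2 of them. Before induction PU.1 differed widely among these bins, from 11.6 reads per 10000000 near *Alpk1* and 26.1 near *Smap2* to 257 near *Gm885* and 260 near *Idh2*.

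To see how the classes fell on known genes, each bin was given to the nearest protein-coding TSS within 100 kb. Of 21275 genes, 10.3% had a C/EBPα-biased, 46.2% a PU.1-biased and 14.9% a co-bound bin, which is the background for the counts that follow. The median log2 ratio of the summed reads per gene was -2.17 over all 12097 genes with bins, and 1121 of these had more C/EBPα than PU.1 reads in sum. *Cebpd* and *Tfec* of the lists were not matched. Genes with long intergenic surroundings collect more bins, and the lists were chosen with results of these data known, so the counts describe the lists and were not tested. Where a second bin is given for a list gene, it is the gene's bin with the most C/EBPα reads. Its contrast with the strongest bin was thus partly set by this choice.

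Among 7 genes of the C/EBP family and PU.1 relatives, 1 had a C/EBPα-biased, 5 a PU.1-biased and 3 a co-bound bin. At *Sfpi1*, which encodes PU.1 itself, the strongest bin was intronic, 754 bp from a TSS, with 115 C/EBPα (94.9 to 138) and 73 PU.1 reads (57.2 to 91.8). It was high before induction, with 28 C/EBPα and 16 C/EBPβ reads at 0 hpi. *Sfpi1* was the one gene of this list with more C/EBPα than PU.1 reads over its 16 bins (log2 ratio 0.25), against 1121 of 12097 over all genes. *Cebpb* had 36 bins, 12 of them co-bound. Its bin 71286 bp downstream of the TSS had 55 and 100 reads (29 C/EBPα and 14 C/EBPβ reads at 0 hpi). Another, 65286 bp downstream and 6000 bp away, was picked for the most C/EBPα reads of the 36 bins and had 89 and 12. The largest counts were small at the other genes, with 12 C/EBPα and 20 PU.1 reads at *Cebpg*, 4 and 16 at *Cebpa*, 2 and 8 at *Cebpe* and 1 and 17 at *Spib*, and *Spic* had no bin.

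All 21 macrophage transcription factor genes had a PU.1-biased bin, 15 a co-bound and 9 a C/EBPα-biased bin. *Nfe2*, a bZIP factor of erythroid and megakaryocytic cells, was the one gene of this list with more C/EBPα than PU.1 reads in sum (log2 ratio 2.57; 1121 of 12097 over all genes), with 125 and 19 reads in the bin 67 bp upstream of its TSS. This bin was high before induction, with 37 C/EBPα and 21 C/EBPβ reads at 0 hpi. *Runx1*, a master regulator of blood formation, had 55 bins, the most of any gene in the lists. Its bin 48190 bp upstream had 6 C/EBPα and 139 PU.1 reads with a PU.1 match. Its intronic bin, 158600 bp away, had 94 and 7 reads with a C/EBP match, as the sequences above show. The intronic bin had 28 C/EBPα and 7 C/EBPβ reads at 0 hpi. *Atf3*, a stress-induced bZIP factor, had bins with 27 and 94 and with 55 and 7 reads at a distance of 3400 bp. *Egr1*, an immediate-early zinc finger factor, had 17 and 82 reads in its strongest bin.

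Of 25 genes for myeloid receptors and adhesion proteins, 24 had a PU.1-biased, 21 a co-bound and 9 a C/EBPα-biased bin. The strongest bins of the 4 highest genes were PU.1-biased and, by their counts, co-bound as well. *Cd36*, a scavenger receptor, had 19 C/EBPα and 157 PU.1 reads in an intron, and *Msr1*, another scavenger receptor, 8 and 131 in a coding exon. *Sirpa*, an inhibitory receptor of phagocytes, had 12 and 123 in an intron. *Il6ra*, the receptor for interleukin 6, had 19 and 146 in an intron and 98 and 9 just 2000 bp away, 217 bp upstream of the TSS. The latter bin had 37 C/EBPα and 14 C/EBPβ reads before induction. *Csf1r*, the receptor for CSF-1, had 8 PU.1-biased, 4 co-bound and no C/EBPα-biased bins, and *Csf3r*, the G-CSF receptor, had 2 C/EBPα-biased and 1 PU.1-biased bin.

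All 10 pattern recognition genes had a PU.1-biased bin, 7 a co-bound and 3 a C/EBPα-biased bin. The strongest bin of *Tlr4*, the receptor for lipopolysaccharide, lay in an annotated UTR 54 bp from its TSS and had 9 C/EBPα and 132 PU.1 reads, and that of *Tlr6*, 814 bp upstream, had 6 and 100. *Tlr4* and *Tlr6* also had bins with more C/EBPα reads (37 and 18, and 22 and 9). At *Tlr2*, the receptor for bacterial lipopeptides, the strongest bin, 43612 bp upstream, had 114 C/EBPα and 11 PU.1 reads and a C/EBP match, and its PU.1 level was 0 at 0 hpi and at most 19.1 per 10000000 at 12 hpi. Over its 36 bins *Tlr2* had 466 C/EBPα and 573 PU.1 reads, with 4 C/EBPα-biased and 14 PU.1-biased bins. At *Nlrp3*, the inflammasome sensor, adjacent bins had 16 and 86 and 30 and 10 reads.

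Of 26 lysosome and granule genes, 20 had a PU.1-biased, 15 a co-bound and 9 a C/EBPα-biased bin. *Lyz1* (lysozyme) showed adjacent bins of opposite order, 8977 bp and 9177 bp upstream. The first, PU.1-biased, co-bound and with a PU.1 match, had 33 C/EBPα (22.7 to 46.3) and 166 PU.1 reads (142 to 193), and the second, without a C/EBP or PU.1 match, 71 (55.5 to 89.6) and 32 (21.9 to 45.2). The C/EBPβ library repeated this order, with 42.5 and 113 reads per 10000000, and so did PU.1 at 0 hpi, with 182 and 26.1. *Lyz1* has a close copy in *Lyz2*, and reads that fit both are not in the counts, since only unique placements were kept. *Ctsd* (cathepsin D) had a bin with 25 and 139 reads, both PU.1-biased and co-bound, and, 1200 bp away, a co-bound bin with 78 and 47 reads. In the latter the PU.1 and C/EBP letters overlap by 1 base, starting at bases 134 and 141. *Ctsc* (cathepsin C) had 4 and 140 reads and *Lgmn* (legumain) 7 and 136 in the strongest bins.

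All 5 NADPH oxidase genes, which make the oxidative burst of phagocytes, had both a PU.1-biased and a co-bound bin, and 1 had a C/EBPα-biased bin. *Ncf1* had 95 C/EBPα and 37 PU.1 reads in the bin 3206 bp upstream, whereas the strongest bins of *Cyba* (9 and 123) and *Ncf4* (27 and 77) had more PU.1 reads. The bin of *Ncf4* was at 1.45 PU.1 reads per 10000000 at 0 hpi and at 85.6 at 24 hpi. Of 18 genes for inflammatory mediators, 12 had a PU.1-biased, 10 a co-bound and 7 a C/EBPα-biased bin. *Il1b* (interleukin 1β) had 12 and 174 reads 2426 bp upstream, with PU.1 and AP-1 matches, and 62 and 12 reads 10774 bp downstream. *Ccl2*, a monocyte chemokine, had 49 and 148 and, 2000 bp away, 106 and 38 in a bin with 17 C/EBPα and 10 C/EBPβ reads at 0 hpi. The strongest bins of *Il6* (115 and 70) and *Ptgs2* (the prostaglandin synthase COX-2, 113 and 42) had more C/EBPα reads, and the latter had 11 C/EBPα and 9 C/EBPβ reads before induction. In sum PU.1 had more reads at both, with 197 C/EBPα and 476 PU.1 reads at *Il6* and 314 and 396 at *Ptgs2*.

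Of 26 B-lineage genes, 21 had a PU.1-biased bin, 6 a co-bound and 4 a C/EBPα-biased bin. None of the 22 genes with bins had more C/EBPα than PU.1 reads in sum, against 1121 of 12097 over all genes. This was not particular to the B-lineage list, as none of the 10 pattern recognition and 5 NADPH oxidase genes did either. The median log2 ratio over the B-lineage genes with bins was -2.42, and -2.17 over all genes with bins. The strongest bins of *Il7r* (the interleukin 7 receptor, 70 bp upstream) and *Bcl11a* (a lymphoid zinc finger factor, intronic) had 0 C/EBPα reads (0 to 3.69) and 103 and 95 PU.1 reads. *Bach2*, a B cell repressor, had 4 and 103. These bins were PU.1 bins before induction too, at 123, 161 and 196 reads per 10000000. Another intronic bin of *Bcl11a*, 42200 bp from the first, had 44 C/EBPα and 30 PU.1 reads. *Ikzf1* (Ikaros), a lymphoid factor, had 2 and 83 reads in 1 intronic bin and 54 and 76 in another 18200 bp away, where PU.1 was at 13.1 at 0 hpi and 46.0 at 24 hpi. Of 26 genes of other lineages, 9 had a PU.1-biased, 1 a co-bound and 1 a C/EBPα-biased bin, and 16 had no bin. *Gata3*, a T cell factor, had 0 and 88 reads in its strongest bin.

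**Figure D5:**
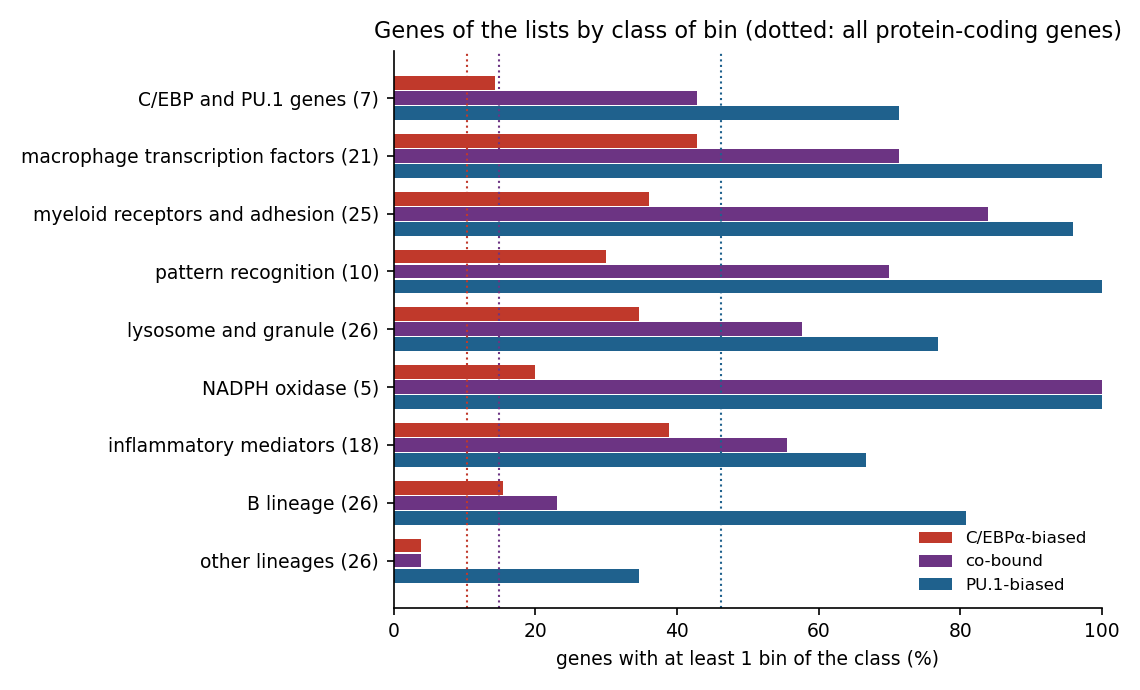
Percentage of the genes of each list (number matched in brackets) with at least 1 C/EBPα-biased, co-bound or PU.1-biased bin nearest to them within 100 kb; dotted lines are the shares over all 21275 protein-coding genes (10.3%, 14.9% and 46.2%). The list of other lineages lies below each line and the other lists, the B-lineage list included, lie above all 3.

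Across the lists, 4 of the 23 genes with 2 bins described had a PU.1-biased strongest bin while the bin with the most C/EBPα reads was C/EBPα-biased, namely *Runx1*, *Il6ra*, *Lgmn* and *Il1b*. The C/EBPα-biased bin of *Lgmn* had 15 C/EBPα and 13 C/EBPβ reads before induction. By their counts this bin and both bins of *Il6ra* and of *Il1b* were co-bound as well as biased. Of all 21275 genes, 8.03% had bins of both biased classes. In the lists such genes numbered 1 of 7 C/EBP and PU.1 genes, 9 of 21 macrophage transcription factors, 9 of 25 myeloid receptors, 3 of 10 pattern recognition genes, 8 of 26 lysosome and granule genes, 1 of 5 NADPH oxidase genes, 6 of 18 inflammatory mediators, 4 of 26 B-lineage genes and 1 of 26 genes of other lineages.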

How the data were processed

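The authors mapped the ChIP-seq reads to mm9 with Bowtie or ELAND. Only perfect, unique matches were retained. The files they deposited list the chromosome, start, end and strand of each read, so all counts were made from these positions and carry no normalization. Which aligner served which library is not given in the sources used here.

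Reads repeating a position and strand (0.187% of C/EBPα, 0 of PU.1) were dropped. The 5′ ends were moved 75 bp inward, PU.1 was thinned to 7760300 reads (seed 1), and reads were counted in 200-bp bins of chromosomes 1 to 19 (Python 3.11, numba, scipy). Library sizes over all 18 libraries were 2824293 to 24236183 reads, and means were scaled to 10000000 reads. Consensus shares used 11968129 bins without unknown bases, weighted in GC classes of 2%. Protein-coding genes and their TSSs came from GENCODE vM1 (NCBIM37). Coordinates count from 1. Counting, classing and motif search were checked on simulated data.

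Named bins were the 8 strongest per class, 1 per nearest gene, and the strongest bins of the 4 highest genes of each list, with all C/EBP and PU.1 genes. Genes named for other bins, such as *Csf1r* and *Csf3r*, were chosen after their values were seen. Some bins and genes that the rule selects are not reported here, and the next bin in order was shown in their place among the sequences. The bins, classes and gene lists were chosen with earlier results of these data known.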

Additional observations from a re-analysis of the deposited data

How the results depend on the processing

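No ratio between classes changed direction in the alternatives, which were applied one at a time to 14 results, where they applied. Counts and shares have no direction here, so they could only stay or move. With 12 reads as the minimum there were 41091 bins, 1810 C/EBPα-biased and 3286 co-bound. The co-bound shares were then 47.3% of C/EBPα and 8.78% of PU.1 bins, the C/EBP consensus was 5.68 times as frequent in C/EBPα-biased as in PU.1-biased bins (4.32 in the report's setting), the TSS share 1.46 times (2.02), the C/EBPβ level at 48 hpi 12.9 times (9.84), and PU.1 at 0 hpi 11.6 times in the other direction (10.8). The co-bound shares were 46.5% and 11.7% with scaled instead of thinned PU.1 reads, 52.3% and 10.2% with equal reads outside the bins, and 10.5% of PU.1 bins without the bins high before induction. A limit of 2-fold gave 6772 C/EBPα-biased bins, with ratios of 3.58 for the C/EBP and 10.2 for the PU.1 consensus (18.9 at 4-fold), 7.3 for C/EBPβ and 6.33 for PU.1 at 0 hpi. A limit of 8-fold gave 1332 C/EBPα-biased and 21559 PU.1-biased bins, with ratios of 2.18 for TSSs, 11.8 for C/EBPβ and 18.3 for PU.1 at 0 hpi. The C/EBPβ and PU.1 0 hpi ratios were 10.02 and 10.2 with the grid moved by 100 bp, 10.01 and 10.06 with reads moved by 50 bp, 10.1 and 12.1 with scaled PU.1 reads, 10.01 and 10.5 with equal reads outside the bins, and 8.8 and 11.8 without the bins high before induction. Chosen after seeing the data were the count of a neighbouring PU.1 bin (59.7% of C/EBPα bins) and lists of like length. With the latter, 20.1% of C/EBPα and 19.4% of PU.1 bins were shared, in place of 48.4% and 11.1%. Of 108 alternative values, 71 stayed within 1.5 times (counts) or within the 95% interval, and 37 moved. No paired analysis was possible because each factor had a single library at 48 hpi. The cause of the changes was not tested, except that stricter limits keep fewer bins by construction. With 0.602 C/EBPα and 0.525 PU.1 reads per bin outside the bins compared, the depth does not show binding of a few reads, and without a replicate the spread between libraries of 1 factor at 48 hpi is unknown.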
